A study of Mus musculus with 8 samples.

Results

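The secreted ligands, membrane receptors and extracellular antagonists of the Wnt pathway were examined in the mouse pituitary gland with and without macrophage depletion. Members were the protein-coding genes of the deposited table named as Wnt ligands, Frizzled (Fzd) receptors, the co-receptors Lrp5 and Lrp6, Sfrp and Dkk antagonists, Wif1, R-spondins (Rspo), their receptors Lgr4, Lgr5 and Lgr6, and Axin2. The choice by name found 48 of the 54854 genes listed, of which 19 were ligands, 12 receptors or co-receptors, 9 antagonists, 7 members of the R-spondin axis and 1 the feedback gene Axin2. Frzb, a relative of the Sfrp genes, did not fall under the naming rule and is given with the other pathway genes.

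Whole pituitaries came from 8 C57BL/6N mice aged 5 weeks. The 4 treated mice (anti-CD115) were exposed to AFS98, an antibody that blocks CSF1R (CD115), the receptor on which many tissue macrophages depend, and the 4 controls to a rat IgG2a isotype antibody. In both arms 3 mg of antibody went to the pregnant dam on embryonic day 6.5, a dose aimed at macrophages of yolk sac origin. Pups were then given 100 µg on postnatal day 2, 150 µg on day 14 and 200 µg at 4 weeks of age. Each arm had 1 female (replicate 1) and 3 males (replicates 2 to 4), and the labels do not say how many dams or litters contributed. If litters differed between the arms, litter and treatment cannot be told apart.

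Libraries held 23289819 to 36218096 counts, and growth hormone transcripts took between 13.5% and 23% of them. The 7 pituitary hormone genes checked were all present, at 202 CPM (counts scaled to library size, with TMM factors) or more in every library. Csf1r, which encodes the blocked receptor, stood at 27.2, 40.3, 37.2 and 26.9 CPM in controls and at 6.80, 1.43, 5.75 and 2.73 CPM after anti-CD115, and all 12 macrophage markers checked fell (edgeR, adjusted p below 0.05). Over all 17723 genes tested, 154 changed with treatment (0.869%), 7 upward (0.0395%) and 147 downward (0.829%). Control replicate 3 stood apart in some markers of adjoining tissue. There 6 cartilage and bone markers summed to 12.7 CPM, and elsewhere to 2.80 to 4.67 CPM. Of these markers, 2 passed the count filter and some were at 0 in some libraries. For 6 fibroblast markers the sum was 1144 CPM against 671 to 939 CPM. The same library did not stand apart for 5 skeletal muscle markers, of which 1 passed the count filter (1.19 CPM, other libraries 0.675 to 1.72 CPM). Nor did it for 6 neuron and oligodendrocyte markers (122 CPM, other libraries 86.9 to 255 CPM).

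As background, Wnt proteins are lipid-modified signals that bind Frizzled receptors. Together with Lrp5 or Lrp6 they stop the destruction of beta-catenin, which then enters the nucleus and, with TCF/LEF factors, switches on target genes such as Axin2; other Wnt proteins, Wnt5a among them, act through Ror receptors and cell polarity without beta-catenin. Sfrp and Wif1 proteins bind the ligands, Dkk1 blocks Lrp5 and Lrp6, and R-spondins, acting through Lgr receptors, protect Frizzled proteins from removal by Znrf3 and Rnf43. In mice, Wnt4 and Wnt5a shape the embryonic pituitary, and SOX2-positive stem cells of the young gland secrete Wnt ligands that act on neighbouring committed progenitors.

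In the isotype control pituitary the pathway was represented mainly by its receptors. Levels between genes are given as FPKM (fragments scaled for gene length and library size), the authors' value, as mean ± SD of 4 control libraries. Of the 48 members, 25 had a control mean of at least 1 FPKM, and they included 11 of 12 receptors and co-receptors but 5 of 19 ligands. Summed over all members the level was 152 ± 9.41 FPKM, of which receptors made up 77.9 ± 6.66 FPKM, ligands 29.5 ± 4.84 FPKM, antagonists 20.8 ± 3.5 FPKM and the R-spondin axis 17.4 ± 1.61 FPKM. These are levels in whole tissue, where fewer cells of a type and less RNA per cell cannot be told apart.

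**Figure D1:**
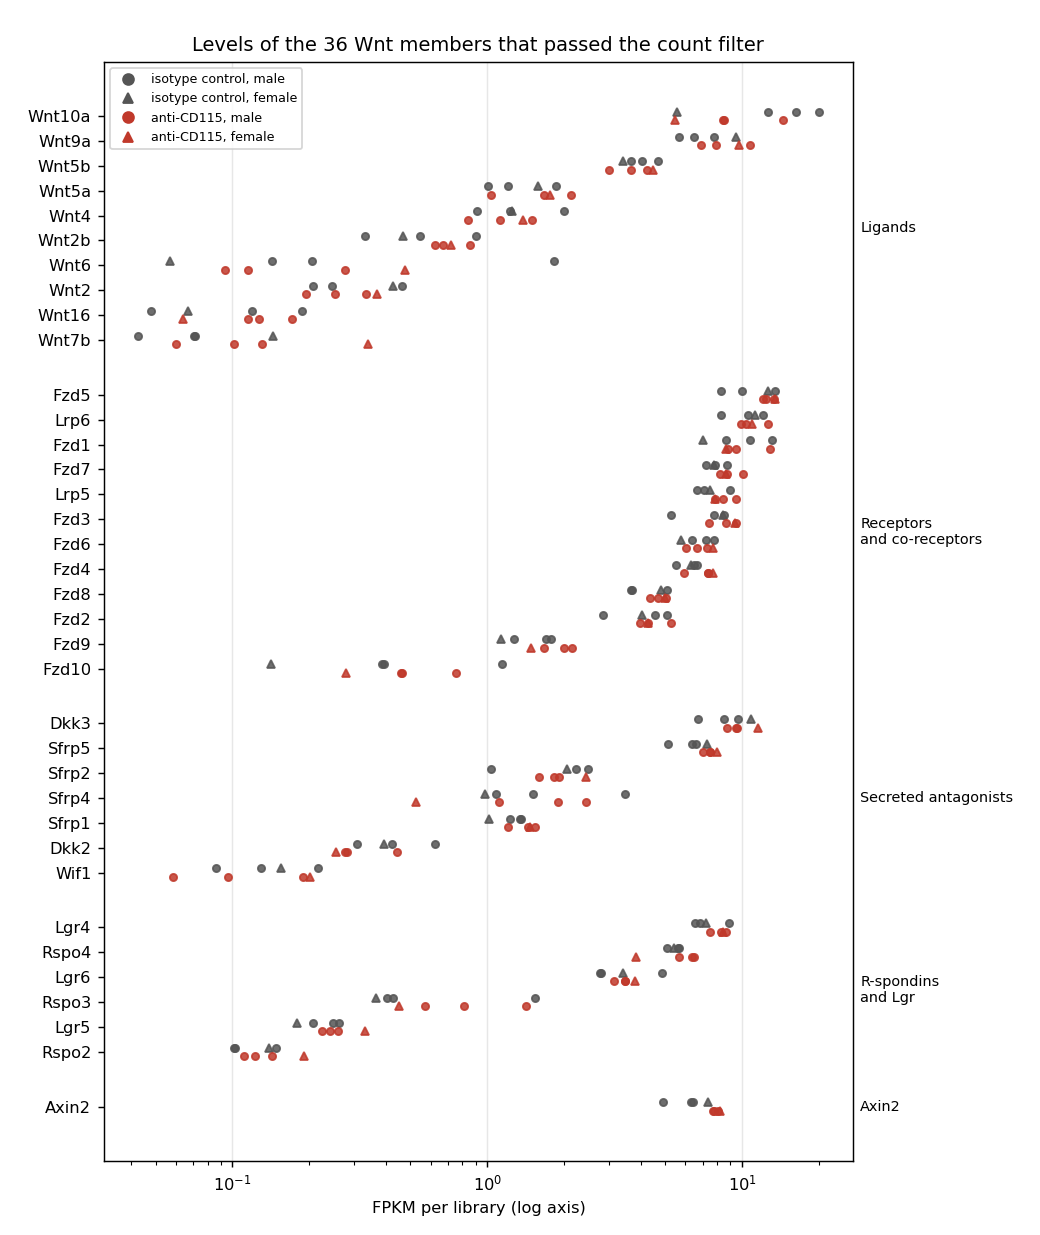
FPKM on a log axis for the 36 members that passed the count filter, ordered within each role by control mean; each point is 1 library, grey for isotype control and red for anti-CD115, with triangles for females. The control means of 11 of 12 receptors lie between 1.47 and 11.1 FPKM, whereas those of the ligands spread from 13.6 FPKM for Wnt10a to 0.0825 FPKM for Wnt7b.

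Among ligands, Wnt10a, which signals through beta-catenin and is best known from tooth and hair development, had the highest control mean of all members, 13.6 ± 6.16 FPKM, and made up 46.1% of the summed ligand level. This order did not hold in the females, where Wnt10a was at 5.55 FPKM in the control and 5.44 FPKM in the treated mouse, below Wnt9a at 9.47 and 9.73 FPKM. Its coefficient of variation among controls was above that of the other ligands over 1 FPKM, since the control female stood at 13.8 CPM and the control males at 31.2, 40.8 and 49.7 CPM. Wnt9a followed with 7.34 ± 1.66 FPKM and Wnt5b, a relative of Wnt5a, with 3.96 ± 0.556 FPKM. The ligands with known embryonic pituitary roles were lower, Wnt5a at 1.42 ± 0.381 FPKM and Wnt4 at 1.35 ± 0.465 FPKM, and their levels lay within each other's SD.

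Several ligand genes lie side by side in the genome, and in 2 of the 4 pairs examined the neighbours differed widely in level. Wnt9a (chromosome 11, 59306928 to 59333552, GRCm38) was abundant while Wnt3a, 16.2 kb away on the opposite strand, had no count in any control. Wnt10a (chromosome 1, 74791516 to 74804179) lies 6.19 kb downstream of Wnt6 on the same strand, and Wnt6 was at 1.83 FPKM in control replicate 3 and at 0.0571 to 0.206 FPKM in the other controls. Both members of the pairs Wnt9b and Wnt3 and Wnt10b and Wnt1 stayed under 0.1 FPKM in the control mean. In all, 9 of 19 ligands did not pass the count filter, among them Wnt1, Wnt3a, Wnt8a and Wnt8b, with at most 4 counts in any library. Wnt7a had no count in the 4 controls and 9, 1, 1 and 1 counts after anti-CD115, too few for a test; 3 counts in a library correspond to 0.0881 to 0.126 CPM.

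The most abundant receptors were Fzd5 at 11.1 ± 2.42 FPKM, the co-receptor Lrp6 at 10.5 ± 1.61 FPKM and Fzd1 at 9.89 ± 2.67 FPKM, which did not differ beyond their SDs from one another. Fzd7 (7.90 ± 0.612 FPKM), Lrp5 (7.56 ± 1.02 FPKM), Fzd3 (7.50 ± 1.54 FPKM), Fzd6 (6.76 ± 0.884 FPKM) and Fzd4 (6.23 ± 0.513 FPKM), the receptor of the vascular ligand Norrin, formed a dense group below them. Fzd8 and Fzd2 were near 4 FPKM (4.32 ± 0.737 and 4.13 ± 0.950 FPKM). Fzd9 was at 1.47 ± 0.318 FPKM and Fzd10 at 0.516 ± 0.435 FPKM.

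Of the secreted antagonists, Dkk3 was the most abundant with 8.93 ± 1.75 FPKM, 42.9% of the antagonists' sum; it is a divergent Dickkopf protein that, unlike Dkk1, is not an established blocker of Lrp5 and Lrp6. Sfrp5 followed at 6.34 ± 0.901 FPKM, and Sfrp2, Sfrp4 and Sfrp1 lay between 1 and 2 FPKM. Dkk1 and Dkk4 had 0 counts in all 8 libraries. In the R-spondin axis Lgr4 led with 7.38 ± 1.06 FPKM, then the ligand Rspo4 with 5.44 ± 0.267 FPKM and Lgr6 with 3.46 ± 0.976 FPKM, while the intestinal stem cell receptor Lgr5 stood at 0.224 ± 0.0378 FPKM. Rspo4 had the smallest spread among control libraries of any tested member, a coefficient of variation of 5.20% in CPM, and Wnt6 the largest at 152%.

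The treatment comparison asked whether these genes differed after loss of CSF1R-dependent macrophages. None of the 36 tested members passed the test, 0 higher and 0 lower (edgeR quasi-likelihood test with a sex term, Benjamini-Hochberg adjustment over all genes), and DESeq2 also called 0. At an unadjusted p below 0.05 there were 3, Axin2, Wnt10a and Wnt7b, which is 8.33% of tested members against 10.3% of all genes. Of the 36, 27 had log2 changes above 0 and the median was 0.14, against 50.9% of all genes above 0 and a median of 0.00406. The median was 0.0784 without control replicate 4, 0.0759 with log2(FPKM + 1) and 0.0305 with the same values unfiltered, and the count was 23 without either female. The remaining 12 members, 9 ligands, Dkk1, Dkk4 and Rspo1, had at most 12 counts in any library and were not tested.

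**Figure D2:**
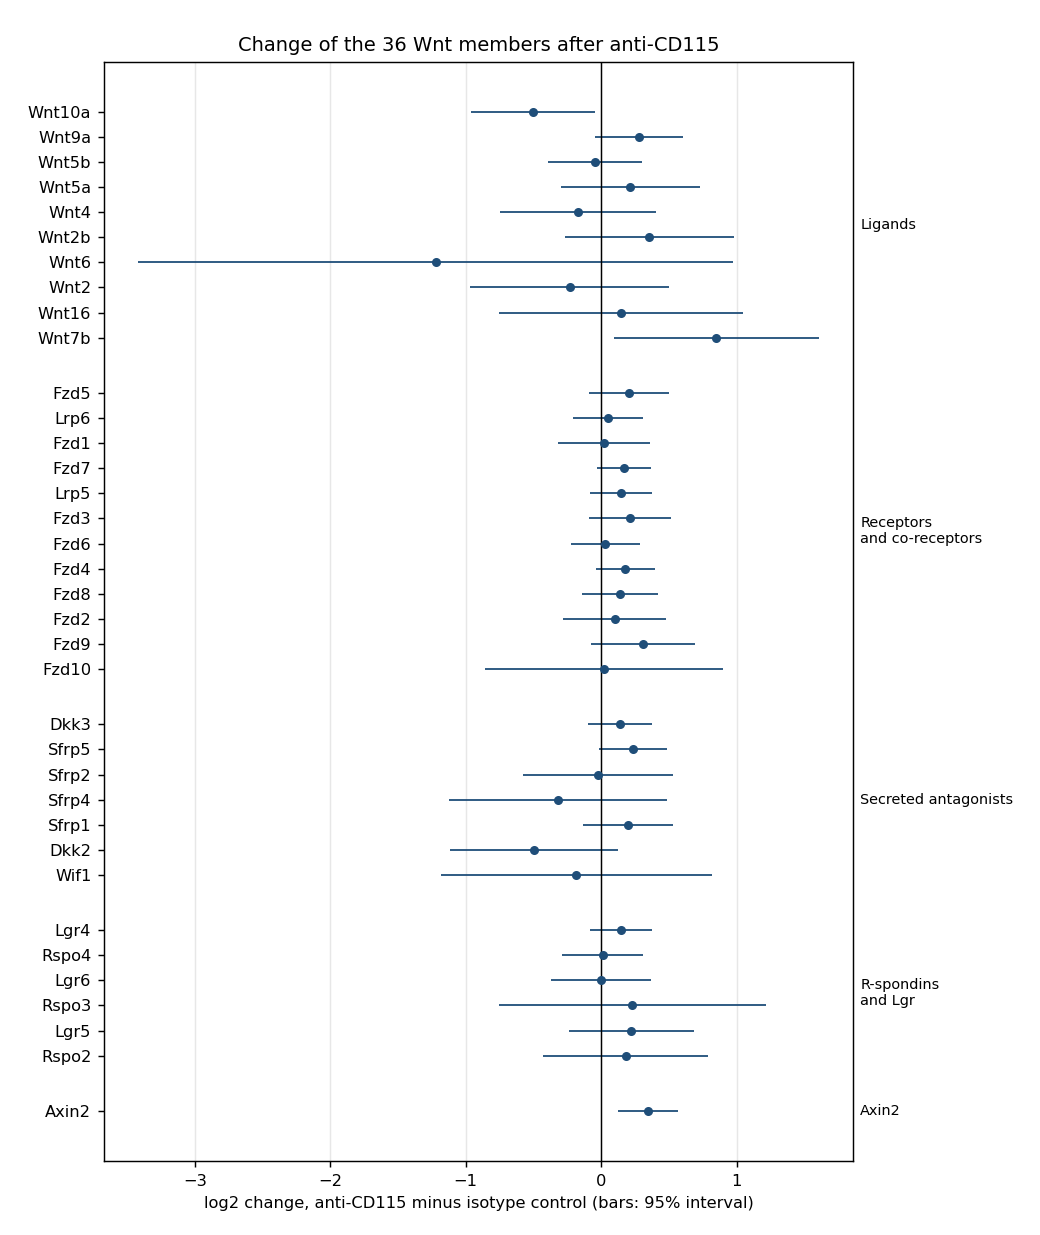
Log2 change, anti-CD115 minus isotype control, for the 36 tested members by role, with points for the edgeR estimate and bars for its 95% interval. The 12 receptors lie between 0.02 and 0.31, the interval of Axin2 runs from 0.13 to 0.57, and the widest interval belongs to Wnt6; no member passed after adjustment.

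Axin2 (chromosome 11, 108920349 to 108950783) encodes a scaffold of the complex that destroys beta-catenin, is itself induced by beta-catenin, and is widely used as a readout of that branch. It stood at 40.6, 34.8, 35.9 and 27.2 CPM in the controls and at 45.3, 44.6, 42.6 and 43.0 CPM after anti-CD115. Every treated library was thus above every control, within each sex as well, and the treated libraries lay closer together. The mean went from 34.6 ± 5.53 to 43.9 ± 1.31 CPM (SD, n = 4 each), a log2 change of 0.35 (SE 0.10, 95% interval 0.13 to 0.57, edgeR adjusted p = 0.244). It was the only tested member whose groups did not overlap, 1 of 36, whereas 5.78% of all tested genes had groups that did not overlap.

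Endothelial transcripts were arranged the same way. The summed level of 7 endothelial markers was 458, 476, 487 and 325 CPM in controls and 515, 552, 493 and 547 CPM after anti-CD115, also without overlap. The highest control was close to the lowest treated library. No marker was below 17.5 CPM in any library, and all 7 had log2 changes above 0, though none passed (smallest edgeR adjusted p = 0.290, for Tek). Mural cell markers, 5 in number, also all had log2 changes above 0, with a median of 0.45 against 0.28 for the endothelial markers and none passing; their sum was 179 to 283 CPM in controls and 238 to 369 CPM after anti-CD115. Control replicate 4 was the lowest library for Axin2, for both of these sums and for the pituicyte (57.3 CPM, others 108 to 193 CPM), fibroblast (671 CPM) and cartilage and bone (2.80 CPM) sums. The sums of 5 stem and folliculostellate markers overlapped, at 237 to 284 CPM in controls and 253 to 283 CPM after anti-CD115. Of these 5, 4 had log2 changes above 0, with a median of 0.08 and none passing. The part of any of these markers in the Axin2 values was not tested.

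**Figure D3:**
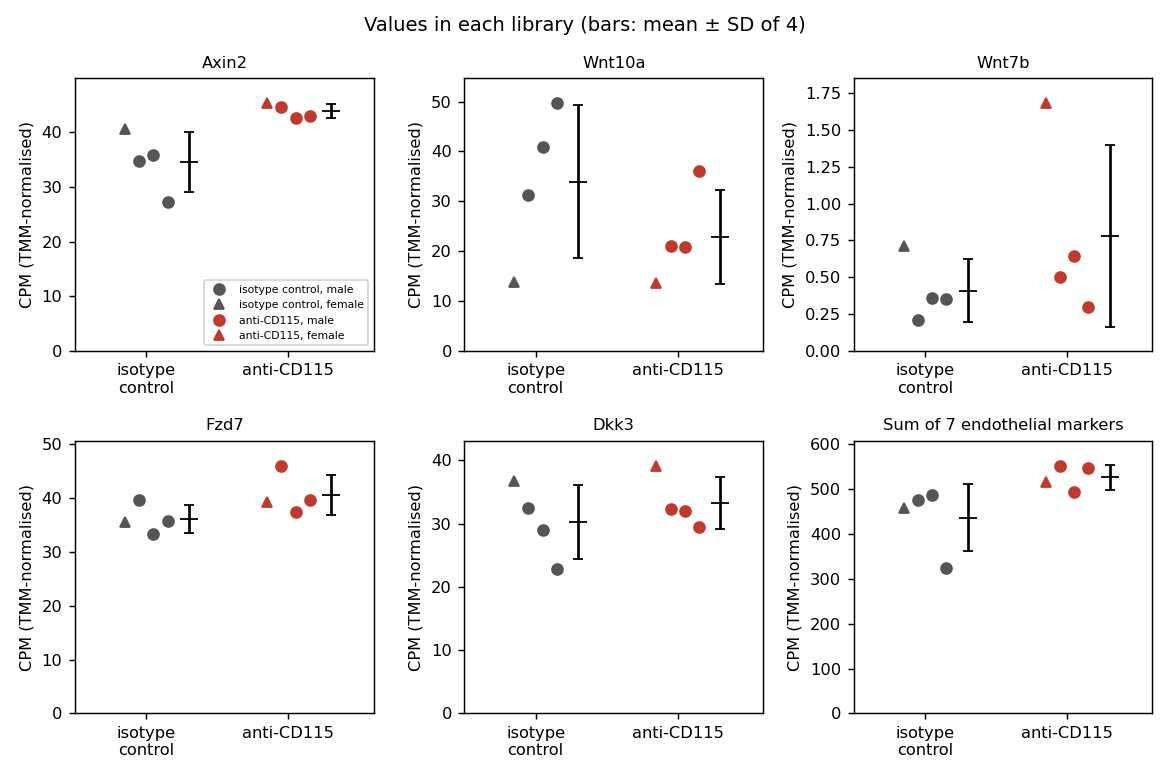
TMM-normalised CPM of 5 members and of the summed endothelial markers in each library, with the mean and SD of the 4 libraries of a group beside the points and triangles for females. Axin2 and the endothelial sum separate the groups, while Wnt10a, Wnt7b, Fzd7 and Dkk3 overlap between them and both females sit at an end of the range for Wnt10a, Wnt7b and Dkk3.

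Other feedback and target genes of beta-catenin did not pass either. Of the 6 target genes listed, 5 were tested, and 3 of these had log2 changes above 0, with a median of 0.10 over the 5. The Dishevelled antagonists Nkd1 and Nkd2 had log2 changes of 0.34 (SE 0.24) and 0.26 (SE 0.21), and Myc, the growth-promoting transcription factor, of -0.38 (SE 0.26). Cyclin D1, Ccnd1, was at -0.01 (SE 0.10). The ubiquitin ligases Znrf3 and Rnf43, which are induced by the pathway and limit it, had 0.22 (SE 0.14) and 0.10 (SE 0.11).

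Among ligands, 5 tested members had log2 changes above 0 and 5 below, with a median of 0.05. Wnt10a was at 13.8, 31.2, 40.8 and 49.7 CPM in controls and at 13.5, 21.1, 20.9 and 36 CPM after anti-CD115. The 2 females were nearly equal, and in the males the groups overlapped through treated replicate 4. The log2 change was -0.51 (SE 0.21, edgeR adjusted p = 0.440). With no low-count filter, which also lets very low genes into the fit, a change of -0.50 had an edgeR adjusted p of 0.0315; under the other alternatives the adjusted p was 0.218 to 0.811.

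Wnt7b, a ligand of the nervous system, lung and kidney, was near the detection limit, with 17, 6, 12 and 10 counts in controls and 48, 14, 22 and 7 after anti-CD115. These correspond to 0.714, 0.210, 0.356 and 0.349 CPM and to 1.68, 0.50, 0.646 and 0.294 CPM, so that the groups overlapped and the treated female was the highest library. Its log2 change was 0.85 (SE 0.34, edgeR adjusted p = 0.434).

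Wnt9a had 31.7, 26.0, 19.1 and 21.7 CPM in controls and 32.6, 26.5, 35.8 and 23.1 CPM after treatment (log2 0.28, SE 0.15). Wnt5b, with 9.12, 12.5, 10.9 and 9.82 CPM against 12, 11.3, 9.78 and 7.99 CPM, gave -0.05 (SE 0.16). Both overlapped broadly between groups. The Wnt5b gene span overlaps the oppositely oriented gene Fbxl14 over 2963 bases, which had 1145 to 1585 counts, so without a stated strand setting some reads may belong to either gene.

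All 12 receptors and co-receptors had log2 changes above 0, from 0.02 to 0.31 with a median of 0.14, and none passed. The number of receptors above 0 was 12 with DESeq2, limma-voom and log2 FPKM, 11 without the sex term, 9 in males only and 9 to 12 when a library was left out, the lowest without either female or without control replicate 3; the median was 0.0860 without control replicate 4. Their summed level was 76.8, 87.6, 72.8 and 74.5 FPKM in controls and 85.4, 85.2, 79.5 and 91.3 FPKM after anti-CD115, which overlap. FPKM also moves with the share of a few very abundant transcripts: growth hormone took 13.5%, 18.2%, 23% and 22.5% of counts in controls and 14.3%, 16.1%, 20.6% and 16.9% after treatment, and its part in the FPKM sums was not tested.

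Fzd5 was at 88.2, 69.7, 95 and 57.3 CPM in controls and 94.0, 86.5, 92.5 and 84.2 CPM after treatment, a log2 change of 0.21 (SE 0.13, 95% interval -0.09 to 0.50). The treated values lay inside the control range. Lrp6 was flat, with 154, 165, 115 and 146 CPM against 151, 142, 137 and 173 CPM (0.05, SE 0.12). Fzd1 had 29.6, 55.5, 36.9 and 45.4 CPM against 36.4, 39.9, 37.2 and 54.4 CPM (0.02, SE 0.15). Neither gave a stable sign, as Lrp6 and Fzd1 were below 0 without control replicate 3 or treated replicate 4, and Fzd1 also without either female.

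Antagonists were divided, with 3 of 7 tested members above 0 and a median log2 change of -0.03. Dkk3 was at 36.7, 32.5, 29.0 and 22.8 CPM in controls and 39.1, 32.4, 31.9 and 29.5 CPM after treatment (log2 0.14, SE 0.11). Sfrp5, which binds Wnt ligands, was at 13.9, 12.6, 12.3 and 9.79 CPM against 15.3, 14.3, 13.4 and 14.3 CPM (0.24, SE 0.11, edgeR adjusted p = 0.518). Treated replicate 3 lay below the control female, the only overlap in Sfrp5. Sfrp2 had 4.45, 4.83, 5.45 and 2.24 CPM against 5.30, 3.46, 4.14 and 3.95 CPM (-0.03, SE 0.25), and its sign changed with limma-voom, FPKM or a replicate block.

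In the R-spondin axis all 6 tested members were above 0, between 0.00219 and 0.23. Lgr4 was at 42.8, 52.8, 39.2 and 40.5 CPM in controls and 49.7, 48.8, 44.4 and 51.0 CPM after treatment (log2 0.15, SE 0.10). Rspo4 was at 12.9, 12.1, 13.5 and 13.5 CPM against 9.19, 13.4, 15.4 and 15.2 CPM (0.01, SE 0.14): the treated female was the lowest of the 8 libraries and treated replicates 3 and 4 the highest. Lgr6 was at 23.4, 33.4, 19.4 and 19.2 CPM against 26.2, 21.6, 24.0 and 23.8 CPM (0.00219, SE 0.17), and the sign of Rspo4 and of Lgr6 depended on single libraries.

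The promoters of Axin2 and Fzd7 are shown as those of the member whose groups did not overlap and of a receptor with a TCF/LEF core. RefSeq windows of 31 members were searched. TCF/LEF factors bind short cores, here taken as CTTTGAA and also CTTTGAT together with CTTTGTA as well as CTTTGTT, which were searched on both strands in windows from 250 bases before to 50 after the start. Such a core was present in 5 of 34 member windows (14.7%) and in 16.9% of all 32851 windows, which have fewer G and C bases (median 52.7% against 68.3%). The member set left out by choice the chromosome that carries Fzd8 and Wnt8a, whereas the set of all windows kept it. Other members, Wnt10a and Dkk3 among them, had no window to search. The value of 14.7% therefore does not describe all members, and the 2 shares come from sets chosen differently. The shares were not tested against each other. The window of Axin2 (chr11:108920099-108920398, plus strand, RefSeq, GRCm38.p6) held none, and that of Fzd7 (chr1:59481897-59482196, plus strand) held 1 on the reverse strand, shown in capitals. The start used for the Fzd7 window differs from that of the counted Fzd7 gene, which begins at 59482424, downstream of the window. A match is a description of the letters and not a binding site.
Axin2: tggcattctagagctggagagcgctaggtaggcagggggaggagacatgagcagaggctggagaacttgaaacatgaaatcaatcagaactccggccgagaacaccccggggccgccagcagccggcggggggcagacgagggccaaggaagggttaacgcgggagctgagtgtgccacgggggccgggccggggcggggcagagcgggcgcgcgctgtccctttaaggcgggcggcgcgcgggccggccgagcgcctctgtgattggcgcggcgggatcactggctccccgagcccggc
Fzd7: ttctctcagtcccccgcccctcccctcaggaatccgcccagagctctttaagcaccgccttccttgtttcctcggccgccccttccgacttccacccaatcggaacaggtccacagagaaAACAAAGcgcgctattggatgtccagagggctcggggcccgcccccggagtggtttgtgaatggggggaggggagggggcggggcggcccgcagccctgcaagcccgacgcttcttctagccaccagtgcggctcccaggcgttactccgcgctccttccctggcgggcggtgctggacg

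Fzd7 itself was at 35.5, 39.7, 33.4 and 35.7 CPM in controls and 39.3, 46.0, 37.4 and 39.6 CPM after treatment (log2 0.17, SE 0.09), overlapping through control replicate 2.

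Among the controls, replicate 3 stood out in several members of lower level. Wnt6 was at 4.09 CPM there and at 0.126, 0.315 and 0.454 CPM in the other controls, and Rspo3, an R-spondin, at 4.86 CPM against 1.13, 1.33 and 1.26 CPM. Sfrp4 was at 14.7 CPM against 4.12, 6.37 and 4.54 CPM. The log2 changes were -1.22 for Wnt6, 0.23 for Rspo3 and -0.32 for Sfrp4, and without that library they were 0.70, 0.93 and 0.13; none passed with or without it (edgeR adjusted p of 0.369 or more without it). After anti-CD115, Rspo3 was at 1.40, 4.39, 2.52 and 1.77 CPM and Sfrp4 at 2.21, 10.3, 7.99 and 4.67 CPM. Both were thus high in treated replicate 2 too, whereas Wnt6 was at 1.05, 0.607, 0.206 and 0.252 CPM. Control replicate 3 had the highest sums of cartilage and bone and of fibroblast markers. In treated replicate 2 these sums were 4.25 and 838 CPM. The part of these markers in the Wnt6, Rspo3 and Sfrp4 values was not tested.

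**Figure D4:**
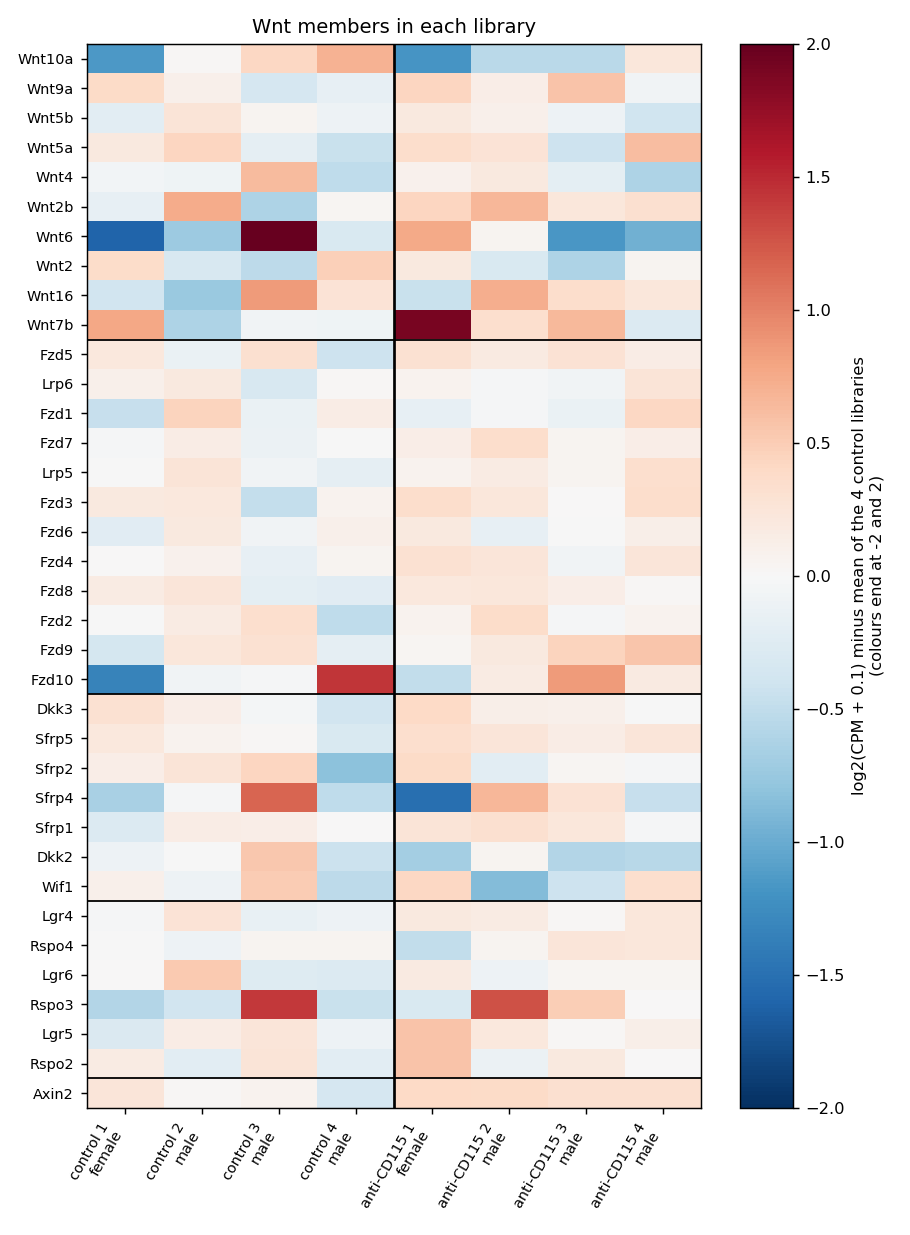
Log2(CPM + 0.1) of the 36 tested members in each of the 8 libraries, relative to the mean of the 4 control libraries, with colours ending at -2 and 2 and black lines between roles. Wnt6, Sfrp4 and Rspo3 are high in control replicate 3, and Sfrp4 and Rspo3 also in anti-CD115 replicate 2. Wnt10a is low in both females, and Axin2 is above 0 in all treated libraries.

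Females and males were compared in the same fit, with treatment as a term. No member passed in edgeR, where 0.491% of all genes did (0.276% higher and 0.214% lower in females), while 6 members had an unadjusted p below 0.05 (16.7% of tested members against 9.09% of all genes). In each of these 6, both females lay on the same side of all 6 males, and 10.5% of all genes separated in this way. With only 2 females the comparison rests on few animals.

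Wnt10a had the smallest adjusted p. It was at 13.8 and 13.5 CPM in the females and at 20.9 to 49.7 CPM in the males (33.3 ± 11.3 CPM, SD, n = 6), a log2 difference of -1.24, female minus male (SE 0.26, edgeR adjusted p = 0.0857). DESeq2 called it (adjusted p = 4.14e-05), as did edgeR with no low-count filter (4.30e-07). Under the other alternatives its adjusted p was 0.0749 to 0.693, highest without the control female.

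The other 5 were split between directions. Sfrp4 (-1.40, SE 0.46), Fzd10 (-1.49, SE 0.52) and Fzd1 (-0.44, SE 0.18) had lower values in females, and Wnt7b (1.53, SE 0.35) and Dkk3 (0.35, SE 0.12) higher values. The separation was narrow for Fzd1, whose females stood at 29.6 and 36.4 CPM with the lowest male at 36.9 CPM. With no low-count filter edgeR called Sfrp4 (adjusted p = 0.00110), Fzd10 (0.0237) and Wnt7b (0.0280). Under the other alternatives none of the 3 passed, with adjusted p from 0.193 for Sfrp4, 0.110 for Fzd10 and 0.109 for Wnt7b.

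**Figure D5:**
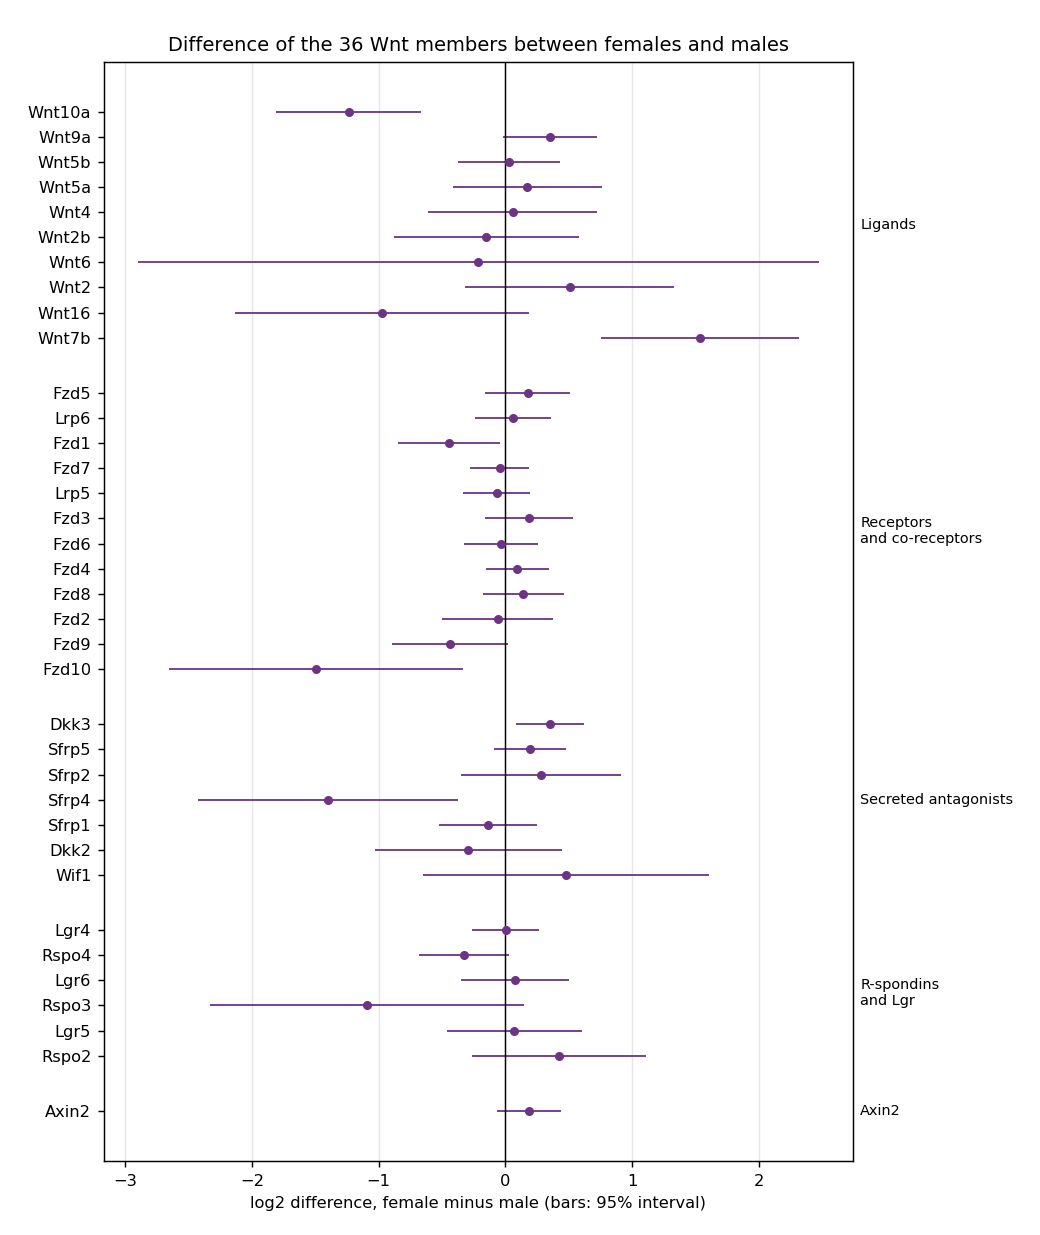
Log2 difference, female minus male, for the 36 tested members by role, with points for the edgeR estimate and bars for its 95% interval (2 females, 6 males). Wnt10a, Fzd1, Fzd10 and Sfrp4 lie below 0 and Wnt7b and Dkk3 above it with intervals that leave out 0; no member passed after adjustment.

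Whether the treatment difference itself differed between the sexes was tested with an interaction term, which rests on 1 female per arm. For Wnt6 the control female was at 0.126 CPM and the control males at 0.315, 4.09 and 0.454 CPM, the high value being replicate 3. The part of that library in the Wnt6 interaction was not tested. No member passed (all edgeR adjusted p were 1.00 after rounding, and DESeq2 called 0), where 0.0395% of all genes did (0.0282% upward and 0.0113% downward). At an unadjusted p below 0.05 there were 3 (8.33%, against 3.2% of all genes), Fzd6 (0.52, SE 0.23), Rspo4 (-0.67, SE 0.26) and Wnt6 (5.23, SE 2.17).

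Pathway genes outside the naming rule were also examined for treatment, and 0 of 58 tested passed in edgeR or DESeq2. In secretion and at the cell surface 0 of 17 tested genes passed, 4 had an unadjusted p below 0.05 and the median log2 change was 0.20; over all genes 0.869% passed, 10.3% had such a p and the median was 0.00406. The antagonist Frzb had the largest value, 1.61 (SE 0.52, edgeR adjusted p = 0.316), at 0.252, 0.490, 0.533 and 0.280 CPM in controls and 1.09, 0.822, 2.41 and 0.379 CPM after treatment, with overlap through treated replicate 4. The trophoblast glycoprotein Tpbg, described in zebrafish as an inhibitor of the beta-catenin branch, gave 0.40 (SE 0.14), and Ror1, a Wnt5a receptor, 0.39 (SE 0.14).

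Inside the cell 0 of 25 genes passed and 6 had an unadjusted p below 0.05 (10.3% of all genes), with a median of 0.12 against 0.00406 over all genes. The smallest p-values belonged to Apc2 (0.34, SE 0.13), a relative of the destruction complex scaffold Apc, Pygo1 (0.25, SE 0.10), a nuclear partner of beta-catenin, and Btrc (0.20, SE 0.08), the ubiquitin ligase subunit that recognises it. Beta-catenin itself, Ctnnb1, gave 0.11 (SE 0.08). Of 11 planar cell polarity genes 0 passed and the median was 0.10; Daam2 gave 0.28 (SE 0.13), Celsr2 0.18 (SE 0.12) and Vangl2 0.18 (SE 0.12).

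In the main edgeR fit Vangl1, a membrane protein of planar cell polarity, was the only pathway gene outside the naming rule called for sex. That is 1 of 58 tested, where 0.491% of all genes passed, and it rests on 2 females. Other pathway genes were not examined for sex under the alternatives. Vangl1 was at 41.1 and 40.7 CPM in the females and at 56.4 to 68.7 CPM in the males. It was lower in females by a log2 difference of -0.59 (SE 0.10, edgeR adjusted p = 0.0317). It showed no such value for treatment (-0.04, SE 0.08). For sex, Vangl1 was also called with DESeq2 (adjusted p = 9.22e-05) and limma-voom (0.0419). In edgeR it was called with no low-count filter (adjusted p = 0.000461) and with a stricter filter (0.0342). The call also held without control replicate 3 (0.0189) or treated replicate 2 (0.0478). The sex call ended without control replicate 1 (adjusted p = 0.304), 2 (0.0530) or 4 (0.0642), without treated replicate 1 (0.261), 3 (0.0802) or 4 (0.0649), and with log2(FPKM + 1) (0.0967).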

How the data were processed

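Gene expression was measured by stranded mRNA sequencing, from 100 ng of RNA per library, in 8 mouse pituitaries. Tools named in the submitters' processing notes were HISAT2 2.0.5 as well as StringTie 1.3.3b, featureCounts 1.5.0-p3 and the genome build GRCm38; their settings, including strand, are not given in the sources used here. The deposited counts are whole reads per gene without normalisation, and the deposited FPKM values are the authors' counts scaled for gene length and library size. Total counts and the value of 3 counts, the floor, set the precision, and cover counting error only.

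The edgeR package 4.0.16 (under R 4.3.3) was applied to the counts: filterByExpr on treatment, TMM factors, and the quasi-likelihood test on all 8 libraries with sex and treatment, adjusted by Benjamini-Hochberg over all genes at 0.05. Standard errors and 95% intervals came from the F statistic. The sex coefficient and a sex by treatment term were tested likewise. Alternatives were DESeq2 1.42.0, limma 3.58.1 (voom, or log2 FPKM with a pseudocount of 1 or 0.1), other filters, no sex term, males only, a replicate block and leaving out each library.

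Members and lists were chosen with earlier results of these data known. All values are given for the 3 members per role with the highest control FPKM, and for those with an unadjusted p below 0.05 for treatment; members with such a p for sex or interaction, and the 3 pathway genes per list with the smallest p, are named with their log2 value. Fzd7, Wnt6, Rspo3, Dkk2, Sfrp4 and other members named for their level, and pathway genes beyond that rule, were chosen after their values were seen. All 48 member identifiers were found in GENCODE M21. The labels do not say whether mice of a group shared a litter, so p-values measure the spread between these mice. No replicate pair agreed within counting noise (chi-square per degree of freedom of 15.6 or more).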

Additional observations from a re-analysis of the deposited data

Results flagged for a closer look

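Each tested member was checked in each group of 4 for a library far from the others (72 checks, of which chance flags about 1 in 20); 3 were found. Rspo3 stood at 4.86 CPM in control replicate 3, against 1.13 to 1.33 CPM in the other controls. Wnt6 stood at 4.09 CPM in the same library, against 0.126 to 0.454 CPM. Dkk2, an Lrp5 and Lrp6 ligand, stood at 1.64 CPM in anti-CD115 replicate 2, against 0.947 to 1.05 CPM; its controls lay at 1.15 to 2.34 CPM and its log2 change was -0.49 (SE 0.28).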

How the results depend on the processing

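No alternative called a member for treatment except edgeR with no low-count filter, which called 1 of 46, Wnt10a, and in that setting 1 pathway gene, Frzb, passed too. Over all genes the count was 154 of 17723 tested. It was 268 of 17723 with DESeq2 and 487 of 32025 with no low-count filter. With log2(FPKM + 0.1) it was 100 of 20248, and with unfiltered log2(FPKM + 1) 67 of 32025. Leaving out 1 library gave 89 to 120, with 89 without anti-CD115 replicate 4 and 101 without anti-CD115 replicate 2. For sex, DESeq2 called 1 of 36 members, Wnt10a, and edgeR with no low-count filter 4 of 46. For sex by treatment the latter called 1 of 46, Wnt6. The share of all genes called was not counted for sex or sex by treatment in these settings. These member counts therefore cannot be set against it. The cause of the differences between settings was not tested. Without a female, sex by treatment could not be fitted and the lone female was assumed to vary like the males. Otherwise leaving out 1 library gave 0 members in each comparison, 0 pathway genes for treatment, and 25 members at 1 FPKM or more each time.

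Values near 0 changed sign. Sfrp2 gave 0.0409 with limma-voom, 0.0192 with log2(FPKM + 1), filtered or not, 0.0476 with log2(FPKM + 0.1) and 0.0284 with a replicate block. Lgr6 gave -0.00152 with the stricter filter and -0.0499 in males only, and Fzd1 gave -0.0666 in males only. Without 1 library the log2 change ran from -0.0432 to 0.14 for Lrp6, -0.0914 to 0.15 for Fzd1, -0.0554 to 0.17 for Rspo4, -0.19 to 0.0647 for Wnt5b, -0.0862 to 0.23 for Lgr6, -0.22 to 0.16 for Sfrp2, -2.21 to 0.70 for Wnt6, -0.0798 to 0.93 for Rspo3 and -0.57 to 0.13 for Sfrp4. Fzd5 gave 0.36 without control replicate 3 and 0.0914 without 4; Wnt9a 0.12 without treated replicate 3; Dkk3 0.22 without control replicate 2 and 0.0454 without 4; Lgr4 0.26 without control replicate 2 and 0.0942 without 3; Sfrp5 0.16 without control replicate 4; and Dkk2 -0.28 without control replicate 3. Without 1 library Axin2 stayed between 0.26 and 0.41 (edgeR adjusted p 0.217 to 0.605) and Wnt10a between -0.69 and -0.35. The adjusted p of Axin2 was 0.0632 in edgeR with no low-count filter and 0.103 with DESeq2. In the remaining settings with other tools, filters or designs it was 0.226 to 0.469. Vangl1 did not pass for sex with log2(FPKM + 0.1) (0.0914) or unfiltered FPKM (0.128), while its log2 difference ran from -0.62 to -0.55 without 1 library.

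Deviations of libraries with the same replicate number had correlations of 0.360, -0.101, 0.0488 and 0.266 across genes, for numbers 1 to 4. Numbers 1 and 4 correlated most with their own number, and numbers 2 and 3 more with another number. Replicate 1 is the female of each arm, so there number and sex cannot be told apart. The numbers were not taken as pairs in the main fit. With a replicate block 0 members, 0 pathway genes and 118 genes were called. Of the 19 ligands, 9 had too few reads to be tested.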
